A study of Mus musculus with 12 samples.

Results

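Wt1, Tmc3, Klhl14, Sfmbt2, Fibin and Lrrtm4 are 6 genes whose RNA was higher in the striatum of R6/2 mice than in that of wild-type mice, whichever of 2 viruses the mice had received. They were picked by name from the 51912 genes of the deposited tables as clear rises of R6/2 over wild-type under both viruses, so that the genotype differences below describe the choice and carry no test. The R6/2 line models Huntington's disease through a transgene, Tg(HDexon1)62Gpb, made of the start of human huntingtin with a long CAG tract. The 4 groups were R6/2-T, R6/2-C, WT-T and WT-C, with 3 libraries of striatal total RNA each. T stands for an adeno-associated virus (AAV) with a short hairpin RNA (shRNA) against TRAX, the protein product of Tsnax, and C for the control shRNA virus. All mice, WT included, were of the B6CBA background, had the virus injected into the striatum of both hemispheres at 5 weeks of age and were studied at 10.5 weeks. No uninjected group was analysed here. The virus's promoter and serotype, not given in the sources used here, would bear on which cells it entered. R6/2 mice express a fragment of huntingtin and not the whole protein. Whether 1 animal gave 1 library is not stated, and p-values therefore reflect differences between libraries that may be partly technical.

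The 6 genes belong to no common pathway. Wt1 encodes a zinc finger transcription factor of the developing kidney, gonad and mesothelium, and Sfmbt2 a Polycomb group protein whose malignant brain tumour (MBT) repeats bind methylated histones. Klhl14 belongs to the Kelch-like family, many members of which hand substrates to the cullin 3 ubiquitin ligase. Tmc3 is a member of the transmembrane channel-like family, known best for Tmc1 and Tmc2, the mechanotransduction channels of inner ear hair cells. Lrrtm4 encodes a leucine-rich repeat adhesion protein of excitatory postsynaptic sites that binds heparan sulphate proteoglycans and neurexins. Fibin encodes a secreted protein named for its role in fin bud initiation in zebrafish. Most cells of the striatum are medium spiny neurons, GABAergic projection neurons whose identity genes are known to be lowered in R6/2 mice.

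Levels are given as CPM, StringTie counts scaled to the size of each library, and as FPKM, fragments scaled by transcript length and library size, where genes are compared with each other. The libraries held 32206228 to 57308836 fragments. All 6 genes were among the 23453 that passed the filter on low counts, a filter that a gene can pass through the genotype in which it is high. Tsnax, the target of the shRNA, had 40.0 to 47.0 CPM in R6/2-T against 168 to 197 CPM in R6/2-C, and 27.6 to 33.6 CPM in WT-T against 151 to 167 CPM in WT-C, so each library lay on the side of its virus label. The 15 medium spiny neuron markers, which check the labelled tissue, were all above 0 in every group, and their summed level was 4420 to 4930 CPM in R6/2-T and 4900 to 6230 CPM in R6/2-C, against 10900 to 14000 CPM in WT-T and 11300 to 12900 CPM in WT-C. In bulk tissue, fewer cells of a type and less RNA per cell cannot be told apart.

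Wt1 had the largest genotype difference of the 6 genes under both viruses. With the shRNA it had 2.69, 1.84 and 3.57 CPM in R6/2-T, against 0.372, 0.129 and 0.176 CPM in WT-T. With the control virus it had 4.61, 6.86 and 5.84 CPM in R6/2-C, against 0.503, 0.406 and 0.799 CPM in WT-C. The 6 R6/2 libraries thus lay above the 6 WT libraries without overlap, and within each genotype the shRNA libraries lay below the control libraries. The fitted level was 12.0 times as high in R6/2-T as in WT-T (log2 3.59, SE 0.43) and 10.1 times as high in R6/2-C as in WT-C (log2 3.33, SE 0.42). The WT values rest on few reads, 7 to 46 fragments per WT library, so that the size of the ratio is less certain than its direction. Wt1 lies on chromosome 2 from 105126529 to 105173616 on the plus strand (GRCm38, ENSMUSG00000016458). No other gene model overlaps it. Its nearest tested neighbours, Ccdc73 and Them7, had log2 genotype differences of −0.90 (SE 0.62) and −0.53 (SE 0.34) with the shRNA and −0.22 (SE 0.62) and −0.51 (SE 0.33) with the control virus, and neither was called in edgeR's quasi-likelihood test. Of the nearest tested genes on either side of each member, none was called higher in R6/2, and Garem1, next to Klhl14, was called lower in R6/2-C than in WT-C (log2 −0.68, edgeR adjusted p = 0.04).

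Wt1 marks podocytes of the kidney and mesothelium outside the brain, and the markers of those cells were not called higher with it. The 8 podocyte and mesothelium markers summed to 27.7 to 42.3 CPM in R6/2-T and 28.4 to 41.3 CPM in R6/2-C, against 46.0 to 59.4 CPM in WT-T and 53.8 to 60.2 CPM in WT-C. Most of that sum was Podxl, which endothelial cells also express and which fell under both viruses, with means of 31.4 CPM in R6/2-T and 31.8 CPM in R6/2-C, against 49.6 CPM in WT-T and 53.2 CPM in WT-C (edgeR adjusted p = 0.0244 and 0.0303). None was at 0, and 6 or 7 of the 8 markers were under 1 CPM in each group. Of 26 tested partners and targets of WT1, 2 rose and 8 fell in R6/2-T against WT-T (median log2 −0.41, against −0.05 for all genes), where edgeR called 11.5% of all genes higher and 11.1% lower. In R6/2-C against WT-C, 1 rose and 4 fell (median −0.18, against −0.02 for all genes), where 4.87% of all genes rose and 4.22% fell. Ciao1, a WT1-binding WD40 protein, rose to 61.2 ± 3.90 CPM in R6/2-C against 48.5 ± 0.750 CPM in WT-C (SD, n = 3 each, log2 0.33, edgeR adjusted p = 0.0309). Ciao1 was called higher with the shRNA too, at 59.5 ± 2.23 CPM in R6/2-T against 48.9 ± 3.8 CPM in WT-T. Among the genes that fell was Wnt4, a signalling ligand of kidney and gonad development, with 2.18 ± 0.802 CPM in R6/2-C against 4.47 ± 0.336 CPM in WT-C (log2 −1.04, edgeR adjusted p = 0.0331). Wnt4 fell with the shRNA as well (log2 −1.35, edgeR adjusted p = 0.00486). The BDNF receptor gene Ntrk2 fell to 544 ± 73.5 CPM in R6/2-C against 760 ± 60.8 CPM in WT-C (log2 −0.48, edgeR adjusted p = 0.0232). With the shRNA Ntrk2 had 744 ± 28.6 CPM in R6/2-T against 819 ± 47.8 CPM in WT-T. Vdr, the vitamin D receptor, Cdkn1a, a cell cycle inhibitor, and Amhr2, the receptor of anti-Müllerian hormone, fell in R6/2-T against WT-T by 4.25, 1.83 and 2.35 on the log2 scale (edgeR adjusted p = 0.0035, 0.00133 and 0.00322).

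The EGR factors, which bind DNA through zinc fingers related to those of WT1, were lower in R6/2, and these are activity-regulated genes in neurons. Of 6 genes tested, Egr1, Egr2, Egr3, Egr4 and their cofactors Nab1 and Nab2, 5 fell and 0 rose in R6/2-T against WT-T (median log2 −1.64). There edgeR called 11.1% of all genes lower and 11.5% higher. In R6/2-C against WT-C, 3 fell and 0 rose (median −0.95), beside 4.22% and 4.87% of all genes. Egr1 had 157 ± 22.7 CPM in R6/2-T against 552 ± 48.5 CPM in WT-T, and 196 ± 56.6 CPM in R6/2-C against 433 ± 106 CPM in WT-C (SD, n = 3 each). Its log2 change was −1.81 (SE 0.23, edgeR adjusted p = 0.000601) with the shRNA and −1.14 (SE 0.23, edgeR adjusted p = 0.0135) with the control virus.

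Tmc3 had the next largest difference, and its shRNA and control libraries overlapped. With the shRNA it had 5.16, 6.88 and 5.38 CPM in R6/2-T, against 0.971, 0.997 and 0.987 CPM in WT-T. With the control virus it had 4.32, 5.59 and 3.92 CPM in R6/2-C, against 0.670, 0.968 and 1.08 CPM in WT-C. The lowest R6/2 library was more than 3 CPM and the highest WT library about 1 CPM, so the genotypes stood well apart. The fitted ratio of R6/2 to WT was 5.89 (log2 2.56, SE 0.22) with the shRNA and 5.07 (log2 2.34, SE 0.22) with the control virus. Tmc3 lies on chromosome 7 from 83584927 to 83625614, plus strand (ENSMUSG00000038540). A noncoding model on the opposite strand, Gm16638, overlaps it and held up to 874 fragments. The library kit marks the strand, but the strand setting of the counting is unknown, so reads of the 2 genes may not have been told apart. Gm16638 differed less by genotype than Tmc3 did, with 20.1 ± 0.901 CPM in R6/2-T against 16.1 ± 1.24 CPM in WT-T (log2 0.32, edgeR adjusted p = 0.0488), and a log2 difference of 0.13 (edgeR adjusted p = 0.476) in R6/2-C against WT-C. It rose with the shRNA in R6/2 (log2 0.87, SE 0.11, edgeR adjusted p = 0.0292), where Tmc3 was not called. In WT-T against WT-C Gm16638 was higher by a similar margin and not called (log2 0.68, SE 0.11, edgeR adjusted p = 0.137).

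Relatives of Tmc3 were read beside all tested genes, and whether they differ from these was not tested. EdgeR called 11.5% of all genes higher and 11.1% lower in R6/2-T against WT-T, and 4.87% and 4.22% in R6/2-C against WT-C. Of 8 tested genes of the family and its hair cell partners, 0 rose in either genotype comparison, 3 fell in R6/2-T against WT-T and 1 fell in R6/2-C against WT-C (median log2 −0.25 and −0.13). Those that fell were Tmc4 in both comparisons (log2 −1.10 with the shRNA and −1.29 with the control virus, edgeR adjusted p = 0.0356 and 0.0378) and, with the shRNA, Tmc8 (log2 −2.13, edgeR adjusted p = 0.00459) and the hair cell channel partner Tmie (log2 −0.60, edgeR adjusted p = 0.0059). Per length, Tmc6 and Tmc7 were the most abundant of the family, at 2.01 ± 0.300 and 2.15 ± 0.0784 FPKM in R6/2-T, while Tmc3 had 1.0 ± 0.132 FPKM in R6/2-T and 0.798 ± 0.0886 FPKM in R6/2-C, against 0.161 ± 0.0258 FPKM in WT-T and 0.136 ± 0.0370 FPKM in WT-C (SD, n = 3 each). Mean Tmc3 was thus above Tmc4 in R6/2, where Tmc4 had 0.411 ± 0.0964 FPKM in R6/2-T and 0.372 ± 0.124 FPKM in R6/2-C, and below it in WT, where Tmc4 had 0.952 ± 0.284 FPKM in WT-T and 0.872 ± 0.263 FPKM in WT-C. Tmc2 was listed at 0.0001 FPKM, the most frequent value of the table, in the mean of each group.

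**Figure D1:**
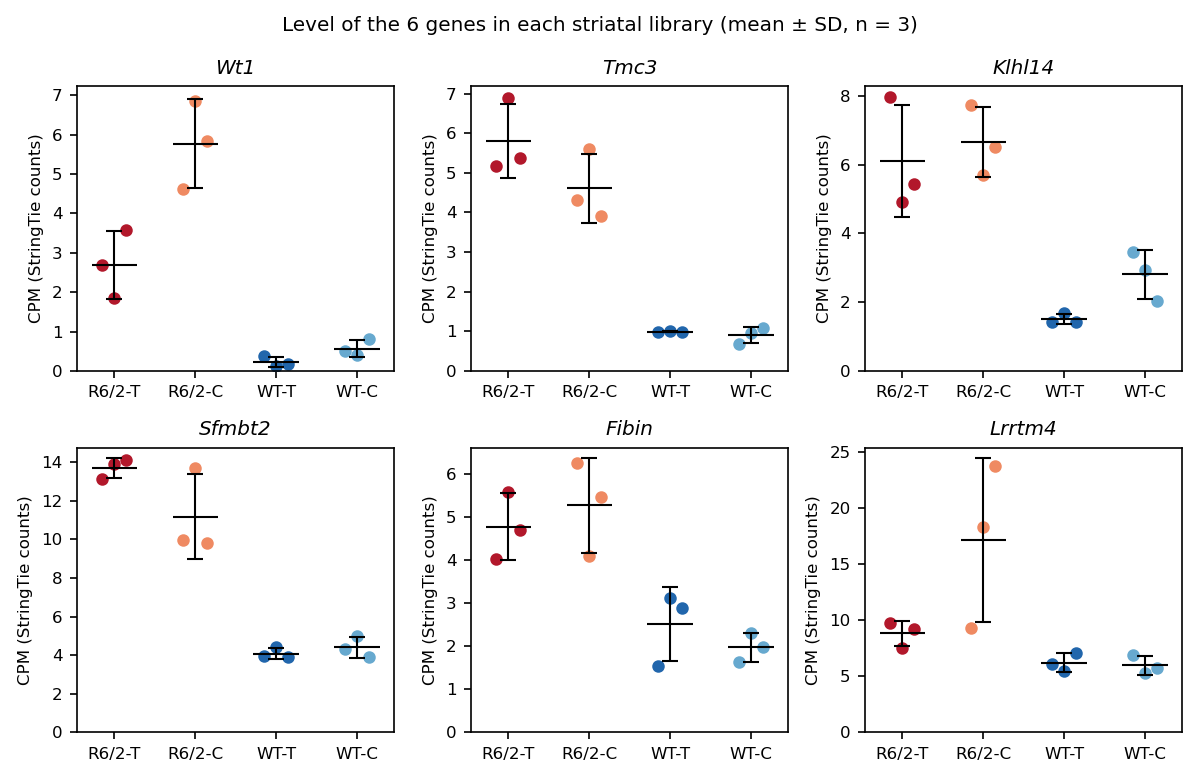
Level of each of the 6 genes in CPM (vertical axes, linear and starting at 0) in the 12 striatal libraries, by group; points are libraries, bars are the mean ± SD of 3 libraries. In every panel the R6/2 libraries lie above the WT libraries; the shRNA libraries of Wt1 lie below the control libraries of their genotype, and Lrrtm4 spreads widely in R6/2-C, from 9.35 to 23.8 CPM.

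Sfmbt2 was higher in R6/2 under both viruses. With the shRNA it had 13.1, 13.9 and 14.1 CPM in R6/2-T, against 3.95, 4.41 and 3.88 CPM in WT-T. With the control virus it had 9.96, 13.7 and 9.82 CPM in R6/2-C, against 4.32, 5.00 and 3.89 CPM in WT-C. The genotypes did not overlap, and the 3 R6/2-T libraries differed by a coefficient of variation of 4.0%. The fitted ratio of R6/2 to WT was 3.35 (log2 1.74, SE 0.16) with the shRNA and 2.54 (log2 1.34, SE 0.15) with the control virus. The gene spans 224744 bp of chromosome 2, from 10370510 to 10595253 on the plus strand (ENSMUSG00000061186), and 4.06% of that span is exonic. In rodents an intron of Sfmbt2 holds a large cluster of microRNA genes of the mir-466, mir-467 and mir-669 families. In the deposited annotation, 120 gene models overlap the span. None of them passed the filter on low counts, and no value is given for that cluster.

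Polycomb genes moved in both directions in R6/2. Of 47 tested, 9 rose and 4 fell in R6/2-T against WT-T (median log2 0.17), where edgeR put 11.5% of all genes higher and 11.1% lower. In R6/2-C against WT-C, 8 rose and 3 fell (median 0.10), where it put 4.87% higher and 4.22% lower. Bmi1, a core component of Polycomb repressive complex 1, rose to 100 ± 3.64 CPM in R6/2-T against 58.7 ± 2.81 CPM in WT-T, and to 89.0 ± 1.51 CPM in R6/2-C against 57.4 ± 2.13 CPM in WT-C (log2 0.77 and 0.63, edgeR adjusted p = 0.000138 and 0.00118). Rnf2, its catalytic partner, rose in R6/2-C (log2 0.50, edgeR adjusted p = 0.012), as did L3mbtl3, another MBT repeat protein (log2 0.60, edgeR adjusted p = 0.018). Suz12, of repressive complex 2, rose in R6/2-T (log2 0.70, edgeR adjusted p = 0.00104). Rnf2, L3mbtl3 and Suz12 were each called higher under both viruses, and the smaller of the 2 log2 rises was 0.50, 0.60 and 0.40. Epop, a modulator of that complex, fell to 2.69 ± 0.189 CPM in R6/2-T against 11 ± 3.89 CPM in WT-T, and to 7.37 ± 1.44 CPM in R6/2-C against 15.4 ± 2.93 CPM in WT-C (log2 −2.03 and −1.06, edgeR adjusted p = 0.000651 and 0.0275). Sfmbt1, the close relative of Sfmbt2, had a smaller difference, 5.11 ± 0.0470 FPKM in R6/2-T against 3.64 ± 0.222 FPKM in WT-T (log2 0.54, edgeR adjusted p = 0.000746). It had 4.33 ± 0.222 FPKM in R6/2-C against 3.55 ± 0.182 FPKM in WT-C (log2 0.24, edgeR adjusted p = 0.0594). Per length Sfmbt1 was above Sfmbt2 in all 4 groups, since Sfmbt2 had 1.93 ± 0.0676 FPKM in R6/2-T, 1.72 ± 0.223 in R6/2-C, 0.621 ± 0.0515 in WT-T and 0.713 ± 0.0908 in WT-C.

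Klhl14 was higher in R6/2 under both viruses. With the shRNA it had 7.96, 4.91 and 5.44 CPM in R6/2-T, against 1.42, 1.69 and 1.43 CPM in WT-T. With the control virus it had 7.74, 5.71 and 6.52 CPM in R6/2-C, against 3.45, 2.95 and 2.02 CPM in WT-C. The genotypes did not overlap, the 2 R6/2 groups overlapped, and the 3 WT-T libraries lay below the 3 WT-C libraries. The fitted ratio of R6/2 to WT was 4.03 (log2 2.01, SE 0.24) with the shRNA and 2.37 (log2 1.25, SE 0.24) with the control virus. The gene (ENSMUSG00000042514) is on chromosome 18, minus strand, from 21550377 to 21654718. The model 4930426D05Rik overlaps its start on the opposite strand, with at most 77 fragments in a library, and had log2 genotype differences of 0.88 (SE 0.38) with the shRNA and 0.90 (SE 0.38) with the control virus, not called in edgeR. Klhl14 is also expressed in B cells. The 9 B and plasma cell markers summed to 30.8 to 43.0 CPM in R6/2-T and 43.1 to 59.3 CPM in R6/2-C, against 61.7 to 387 CPM in WT-T and 121 to 239 CPM in WT-C, with a lower range in R6/2. In R6/2-T against WT-T edgeR called 7 of the 9 lower, DESeq2 called 9 and limma on FPKM 1, where edgeR called 11.1% of all genes lower. In R6/2-C against WT-C edgeR called 0, beside 4.22% of all genes lower. There 4 had an unadjusted p under 0.05, beside 25.3% of all genes, DESeq2 called 4 and limma on FPKM 2. None was at 0 in any group.

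Other Kelch-like genes were called in both directions in R6/2. Of 49 tested Kelch-like and cullin 3 genes, 17 rose and 3 fell in R6/2-T against WT-T, with a median log2 of 0.26, beside 11.5% and 11.1% of all genes. In R6/2-C against WT-C, 7 rose and 2 fell, with a median of 0.13, beside 4.87% and 4.22% of all genes. Whether the list differs from other genes was not tested. Klhl1, a neuronal actin-binding Kelch protein, rose to 22.3 ± 1.83 CPM in R6/2-C against 9.95 ± 3.36 CPM in WT-C (log2 1.17, SE 0.23, edgeR adjusted p = 0.0143). Klhl12, an adaptor in secretory vesicle formation, rose under both viruses (log2 0.75 with the shRNA and 0.62 with the control virus, edgeR adjusted p = 0.000939 and 0.00681). Kbtbd7 rose with the control virus (log2 0.67, edgeR adjusted p = 0.0134). Klhl1 and Kbtbd7 were called higher with the shRNA too, with means of 20.6 and 83.8 CPM in R6/2-T against 10.1 and 47.2 CPM in WT-T. Klhl24, which controls keratin turnover in skin, and Klhl28 rose in R6/2-T against WT-T (log2 0.80 and 0.76, edgeR adjusted p = 0.000831 and 0.000692). Ivns1abp, a Kelch protein that binds an influenza virus protein, fell under both viruses (log2 −0.64 with the shRNA and −0.62 with the control virus, edgeR adjusted p = 0.00136 and 0.00481).

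Fibin was higher in R6/2 by a moderate margin under both viruses. With the shRNA it had 4.03, 5.58 and 4.68 CPM in R6/2-T, against 1.53, 3.12 and 2.88 CPM in WT-T. With the control virus it had 6.25, 4.08 and 5.46 CPM in R6/2-C, against 1.63, 2.31 and 1.98 CPM in WT-C. The genotypes did not overlap, but the gap between the highest WT-T and the lowest R6/2-T library was under 1 CPM. The fitted ratio of R6/2 to WT was 1.90 (log2 0.92, SE 0.27) with the shRNA and 2.67 (log2 1.41, SE 0.28) with the control virus. The single-exon gene occupies 2267 bp of chromosome 2, from 110360917 to 110363183 on the minus strand (ENSMUSG00000074971), and no other model overlaps it. Its nearest tested neighbour, Bbox1, which makes carnitine, had log2 genotype differences of −0.36 (SE 0.20) with the shRNA and −0.11 (SE 0.20) with the control virus. Of 8 tested genes of fin and limb bud initiation, edgeR called 1 higher and 0 lower in R6/2-T against WT-T, beside 11.5% and 11.1% of all genes. In R6/2-C against WT-C it called 0, beside 4.87% of all genes higher and 4.22% lower. With the control virus 3 had an unadjusted p under 0.05, beside 25.3% of all genes, DESeq2 called 1 and limma on FPKM 0. The 1 called in R6/2-T against WT-T, the T-box factor Tbx5, had a mean of 0.141 CPM in R6/2-T and was at 0 in the 3 WT-T libraries.

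Lrrtm4 was higher in R6/2 by every measure, but its size depended on how reads were counted. In CPM of StringTie counts it had 9.73, 7.56 and 9.21 in R6/2-T, against 6.10, 5.49 and 7.11 in WT-T. With the control virus it had 9.35, 18.3 and 23.8 CPM in R6/2-C, against 6.90, 5.33 and 5.70 CPM in WT-C. The genotypes did not overlap, but replicate 1 of R6/2-C lay among the R6/2-T libraries and well below the other R6/2-C libraries. The fitted ratio of R6/2 to WT was 1.42 (log2 0.50, SE 0.27) with the shRNA, the only genotype difference of the 6 genes that was not called, and 2.87 (log2 1.52, SE 0.28) with the control virus. In CPM of fragments recovered from the Cuffdiff columns, Lrrtm4 had 55.7, 44.7 and 51.7 in R6/2-T, against 27.3, 32.7 and 32.5 in WT-T, and 56.9, 47.1 and 51.1 in R6/2-C, against 33.4, 33.6 and 33.7 in WT-C. In fragments the R6/2 libraries were thus close together under both viruses, with log2 differences of 0.72 (SE 0.10) with the shRNA and 0.63 (SE 0.10) with the control virus. In FPKM the values were 4.16, 3.39 and 3.17 in R6/2-T, against 2.31, 2.44 and 2.18 in WT-T, and 3.62, 5.51 and 6.39 in R6/2-C, against 2.67, 2.54 and 2.17 in WT-C. FPKM kept the order of the StringTie counts in R6/2-C.

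The deposited measures of Lrrtm4 differ in scale as well. Over 15242 genes with at least 100 fragments, StringTie gave about 4 counts for each fragment, with a median over values of 4.06. Lrrtm4 had 0.65 to 1.91 counts per fragment (median 0.72), a value at or below which lay 0.223% of these genes. The other members had 2.94 to 5.77. The 2 R6/2-C libraries with the highest StringTie level of Lrrtm4 were also the 2 with the most counts per fragment. Lrrtm4 spans 791267 bp of chromosome 6, from 80018877 to 80810143 on the plus strand (ENSMUSG00000052581), and 0.777% of that span is exonic. Whether the Cuffdiff columns also count fragments outside exons was not tested.

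**Figure D2:**
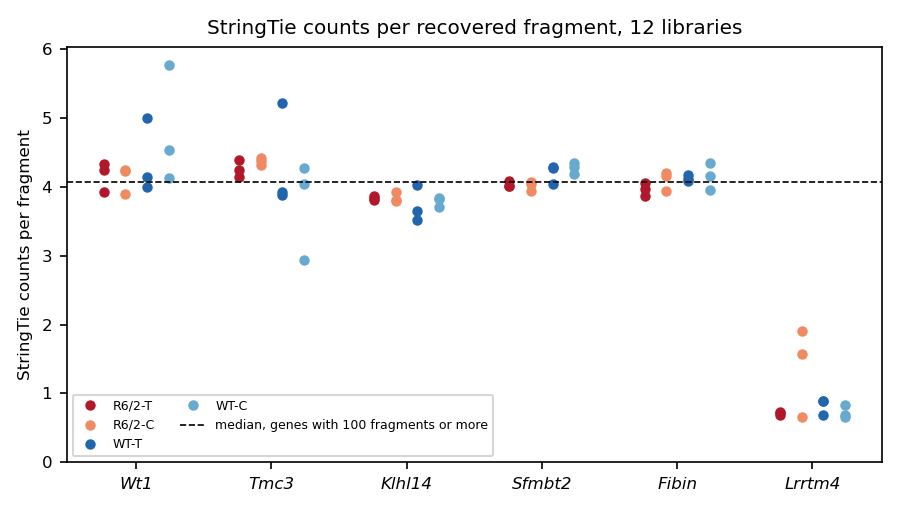
StringTie counts per recovered fragment (vertical axis, linear) for each of the 6 genes in the 12 libraries, coloured by group; the dashed line is the median of 4.06 over values of at least 100 fragments. Lrrtm4 lies below 2 in every library, and the other genes lie between 2.94 and 5.77.

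Presynaptic partners and relatives of Lrrtm4 were read beside all genes, and whether they differ from these was not tested. Of 19 tested LRRTM, neurexin, glypican, syndecan and receptor phosphatase genes, edgeR called 0 higher and 2 lower in R6/2-T against WT-T (median log2 −0.03). There it called 11.5% of all genes higher and 11.1% lower. In R6/2-C against WT-C it called 0 (median −0.15), beside 4.87% of all genes higher and 4.22% lower. With the control virus 3 had an unadjusted p under 0.05, beside 25.3% of all genes, DESeq2 called 1 and limma on FPKM 0. Lrrtm1, a neurexin-binding relative, fell to 28.1 ± 0.662 CPM in R6/2-T against 63.3 ± 16.8 CPM in WT-T (log2 −1.17, SE 0.19, edgeR adjusted p = 0.00177). Sdc3, a heparan sulphate proteoglycan of neurons, fell to 223 ± 17.7 CPM in R6/2-T against 387 ± 67.9 CPM in WT-T (log2 −0.80, edgeR adjusted p = 0.00683). Per length Lrrtm4 was the least abundant of the 4 LRRTM genes in every group, with 3.57 ± 0.520 FPKM in R6/2-T, 5.17 ± 1.41 in R6/2-C, 2.31 ± 0.129 in WT-T and 2.46 ± 0.259 in WT-C, and the other 3 at 9.32 FPKM or more. This order is that of FPKM, and whether it holds in recovered fragments was not tested.

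**Figure D3:**
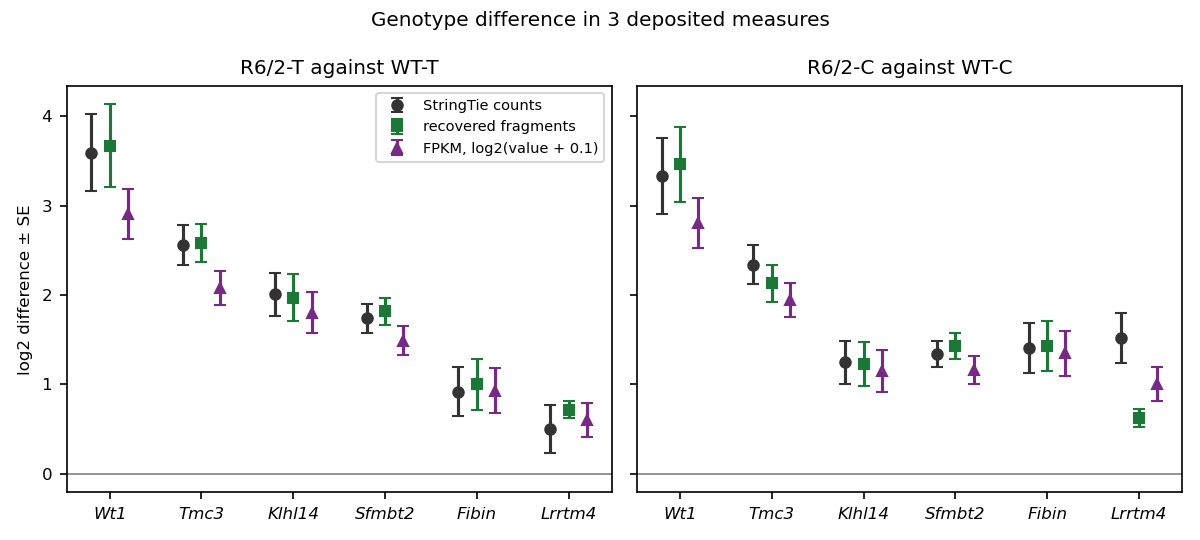
Log2 difference of R6/2 over WT ± SE (vertical axes) for each gene with the shRNA (left) and with the control virus (right), from StringTie counts (circles), recovered fragments (squares) and FPKM on the log2(value + 0.1) scale (triangles). All 36 values are above 0; for Lrrtm4 in R6/2-C against WT-C they run from 0.63 to 1.52.

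Between measures the other 5 genes changed little. Between StringTie counts and recovered fragments their genotype log2 differences moved by at most 0.21, for Tmc3 with the control virus. FPKM gave smaller values for Wt1 and Tmc3 (2.91 and 2.08 with the shRNA, 2.81 and 1.94 with the control virus), on a log2(value + 0.1) scale that understates the change of genes with low levels.

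The sequence before the start of the genes was read because they were high together. RefSeq's promoter table for GRCm38.p6 held 4 of the 6, Tmc3, Sfmbt2, Fibin and Lrrtm4, and not Wt1 and Klhl14. The bases upstream of the start in both RefSeq and the deposited table are printed 5′ to 3′ on the gene's strand, at chr7:83584681-83584926 (plus) for Tmc3, chr2:10370201-10370450 (plus) for Sfmbt2, chr2:110363184-110363243 (minus) for Fibin and chr6:80018627-80018876 (plus) for Lrrtm4. Capitals mark matches to the motifs searched, on either strand.
Tmc3: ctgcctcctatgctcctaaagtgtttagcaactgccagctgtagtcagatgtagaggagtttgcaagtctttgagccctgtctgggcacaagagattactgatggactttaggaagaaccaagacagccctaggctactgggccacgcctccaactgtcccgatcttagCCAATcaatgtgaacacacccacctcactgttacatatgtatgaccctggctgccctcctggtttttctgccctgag
Sfmbt2: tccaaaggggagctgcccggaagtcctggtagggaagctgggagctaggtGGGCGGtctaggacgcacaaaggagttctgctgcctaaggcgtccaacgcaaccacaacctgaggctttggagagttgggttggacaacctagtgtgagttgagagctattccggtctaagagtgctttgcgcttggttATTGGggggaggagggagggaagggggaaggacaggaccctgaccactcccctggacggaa
Fibin: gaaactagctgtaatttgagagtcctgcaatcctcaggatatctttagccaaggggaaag
Lrrtm4: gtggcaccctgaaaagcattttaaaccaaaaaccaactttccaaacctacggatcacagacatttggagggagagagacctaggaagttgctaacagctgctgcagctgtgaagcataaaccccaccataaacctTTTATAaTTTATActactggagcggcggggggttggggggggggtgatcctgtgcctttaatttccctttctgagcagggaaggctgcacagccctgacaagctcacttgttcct

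The 4 promoters shared no motif of those searched. Tmc3 and Sfmbt2 each held 1 CCAAT box, which 37.4% of 32817 promoters of the same 300 bases hold, in Sfmbt2 on the opposite strand. Sfmbt2 also held 1 GC box (GGGCGG, in 35.6% of promoters), and Lrrtm4 held 2 TATAAA elements on the opposite strand (13.6%). The EGR and WT1-type letters GCGTGGGCG (0.612% of promoters) and GCGGGGGCG (2.91%) were in none of the 4 windows, nor were TGACGTCA (1.79%), TGANTCA (7.81%), CACGTG (7.15%) or GCCATNTT (6.04%). The GC content of the 300 bases was 51.0% for Tmc3, 57.7% for Sfmbt2, 56.3% for Fibin and 48.7% for Lrrtm4, around the median of 52.7% over all promoters. For Fibin only 60 of these bases lie before the deposited gene start, and the rest lie inside the gene. The observed over expected ratio of CpG was 0.10, 0.39, 0.46 and 0.23 in the same order, against a median of 0.38. CpG was thus scarcer before Tmc3 and Lrrtm4 than before the median gene.

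By the adjusted p under 0.05 that calls a gene, 5 of the 6 were called higher in R6/2-T against WT-T, where edgeR called 11.5% of all tested genes higher, and 6 of 6 in R6/2-C against WT-C, where it called 4.87%. Since these contrasts chose the genes, nothing is read from the counts. For all 6 genes every R6/2 library was above every WT library, as it was for 7.22% of tested genes. By the smaller of its 2 log2 rises, Wt1 ranked 2nd, Tmc3 3rd, Sfmbt2 5th, Klhl14 8th and Fibin 28th among 665 named genes called higher under both viruses with no overlap. Lrrtm4 was not ranked, since it was not called with the shRNA. The first place was held by Pou4f1, a POU-domain transcription factor of sensory and habenular neurons, with 3.34 CPM in R6/2-T and 2.59 CPM in R6/2-C on average, against 0.144 CPM in WT-T and 0.0911 CPM in WT-C. The other genes among the first 10 were the protocadherin Pcdh20, Dcaf12l2, Lnp1, the serotonin receptor Htr2c and the cytochrome Cyp4x1.

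**Figure D4:**
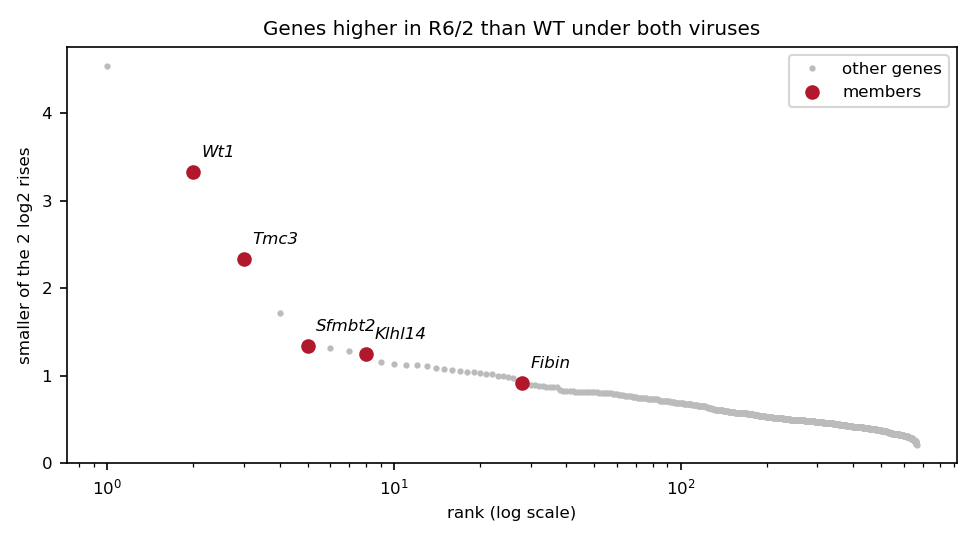
The 665 named genes called higher in R6/2 under both viruses with no overlap between genotypes, by rank (horizontal axis, log scale) and by the smaller of their 2 log2 rises (vertical axis); red points are members. Wt1 and Tmc3 lie at 3.33 and 2.34, and Sfmbt2, Klhl14 and Fibin at 1.34, 1.25 and 0.92.

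Per length, the order of the 6 genes differed between genotypes. Lrrtm4 was first in every group and did not overlap with the next gene. In WT-T and WT-C, Fibin, Sfmbt2 and Klhl14 followed, and Wt1 and Tmc3 were the lowest 2 genes. In R6/2-C Wt1 was second, with 2.52 ± 0.496 FPKM (SD, n = 3), but its libraries overlapped with those of Fibin (2.15 ± 0.465 FPKM), which overlapped with those of Sfmbt2 (1.72 ± 0.223 FPKM), which overlapped with those of Klhl14 (1.43 ± 0.156 FPKM). In R6/2-T Sfmbt2, Fibin, Klhl14, Wt1 and Tmc3 overlapped from each to the next. No library lay above its group's mean log2 CPM for all 6 genes, and none below it.

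In R6/2 the TRAX shRNA changed none of the 6 genes past the threshold, and Wt1 and Lrrtm4 had the largest differences. The contrast of R6/2-T with R6/2-C did not choose the genes. EdgeR called 0 of 6, 2 had an unadjusted p under 0.05, DESeq2 called 2 and limma on FPKM 0, while edgeR called 0.0682% of all genes and 19.2% had an unadjusted p under 0.05. Over all genes DESeq2 called 1664 and limma on FPKM 50, against 16 by edgeR. Wt1 was lower in all 3 R6/2-T libraries than in any R6/2-C library, with a log2 difference of −1.09 (95% interval −1.94 to −0.25, edgeR adjusted p = 0.166, DESeq2 adjusted p = 0.0473). All 3 R6/2-T libraries lay below all 3 R6/2-C libraries for 12.9% of tested genes. Lrrtm4 had a log2 difference of −0.96 (95% interval −1.56 to −0.36, edgeR adjusted p = 0.112, DESeq2 adjusted p = 0.0176) in StringTie counts. In recovered fragments, where the libraries overlapped, it was −0.04 (SE 0.10, edgeR adjusted p = 0.839). The other 4 had differences of 0.33 (95% interval −0.13 to 0.79) for Tmc3, −0.13 (−0.64 to 0.39) for Klhl14, 0.29 (−0.04 to 0.63) for Sfmbt2 and −0.14 (−0.73 to 0.45) for Fibin, with edgeR adjusted p of 0.318 to 0.811. These intervals still allow changes of up to about 0.8 on the log2 scale.

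In WT the shRNA left 0 of 6 called as well. Here 2 had an unadjusted p under 0.05, and neither DESeq2 nor limma on FPKM called any. EdgeR called 0.00426% of all genes, and 6.45% had an unadjusted p under 0.05. Wt1 had a log2 difference of −1.35 (95% interval −2.24 to −0.45, edgeR adjusted p = 0.592) in WT-T against WT-C, with no overlap in CPM and with overlap in recovered fragments. Klhl14 had −0.89 (95% interval −1.41 to −0.37, edgeR adjusted p = 0.468), with the 3 WT-T libraries below the 3 WT-C libraries in all measures, as for 5.88% of tested genes in CPM. The other 4 lay within 0.35 of 0, with 95% intervals of −0.35 to 0.58 for Tmc3, −0.44 to 0.23 for Sfmbt2, −0.25 to 0.94 for Fibin and −0.54 to 0.66 for Lrrtm4.

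Wt1 was lower with the shRNA in both genotypes, and the average of both changes was examined after these values were seen. It was −1.22 on the log2 scale (95% interval −1.84 to −0.61), a level 0.429 times that with the control virus, and in CPM 6 of 6 shRNA libraries were below every control library of their genotype. In recovered fragments that did not hold in WT, where replicate 1 of WT-T, at 0.372 CPM, was above replicates 1 and 2 of WT-C, at 0.353 and 0.368 CPM. The call depended on the tool and on 1 library, with an edgeR adjusted p of 0.106, a DESeq2 adjusted p of 0.00135, and an edgeR adjusted p of 0.0202 (log2 −1.50) without replicate 1 of WT-T. EdgeR called 0 of 6 members in this average, 3 had an unadjusted p under 0.05, DESeq2 called 1 and limma on FPKM 0. EdgeR called 0.217% of all genes, and 14.4% had an unadjusted p under 0.05. Over all genes DESeq2 called 749 in this average and limma on FPKM 80, against 51 by edgeR.

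**Figure D5:**
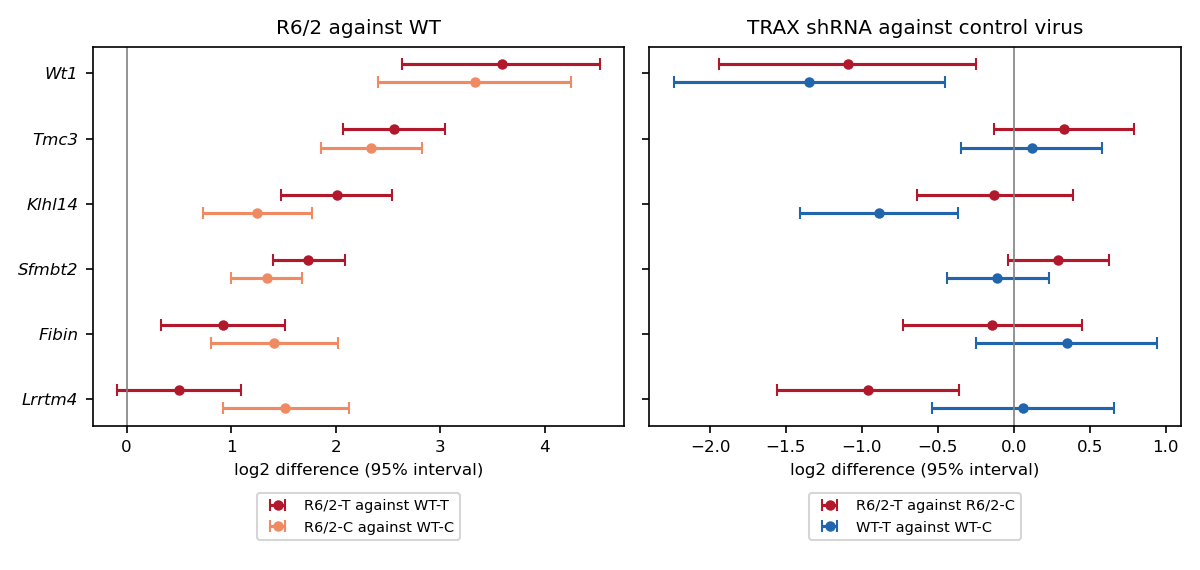
Log2 differences with 95% intervals (horizontal axes) of the 6 genes, for R6/2 against WT (left) and for the TRAX shRNA against the control virus (right), from edgeR on StringTie counts. The genotype differences chose the genes; on the right Wt1 lies below 0 in both genotypes, Klhl14 in WT and Lrrtm4 in R6/2, and the other intervals include 0.

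Whether the genotype difference itself depended on the virus was tested with the interaction, the genotype difference with the shRNA minus that with the control virus. A choice of genes high under both viruses favours small interactions. EdgeR called 0 of 6, against 0.00426% of all genes, with 2 at an unadjusted p under 0.05, against 11.7% of all genes, and 0 called by DESeq2 or by limma on FPKM. The 2 were Klhl14, with 0.76 (95% interval 0.04 to 1.49, edgeR adjusted p = 0.408), and Lrrtm4, with −1.02 (95% interval −1.86 to −0.18, edgeR adjusted p = 0.372) in StringTie counts and 0.09 in recovered fragments. For Wt1 it was 0.25 (95% interval −0.95 to 1.46) and for Fibin −0.49 (−1.33 to 0.35).

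Over the 7 pathway lists together, edgeR called 0 of 163 tested genes with the shRNA in R6/2 and 0 in WT, beside 0.0682% and 0.00426% of all genes. In R6/2 40 of them had an unadjusted p under 0.05, beside 19.2% of all genes, DESeq2 called 16 and limma on FPKM 1. Over all genes DESeq2 called 1664 there and limma on FPKM 50. In WT 15 had an unadjusted p under 0.05, beside 6.45% of all genes, and DESeq2 and limma called 0. Whether the lists differ from other genes was not tested.

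Among 13323 named genes compared, the 3 with the profile most similar to each member over the 12 libraries had smaller genotype differences than that member, except Tmc3 beside Sfmbt2. Genes with a mean log2 CPM under 1 were left out of this comparison. The correlations (Pearson r of log2 CPM) describe libraries that share their groups and carry no test. Closest to Wt1 was Poglut1, an O-glucosyltransferase of Notch receptors (r = 0.979), with log2 genotype differences of 0.33 with the shRNA and 0.31 with the control virus, followed by Cops4 and Acat1. Closest to Tmc3 were Fam98b (r = 0.983), Ints9 and Armcx5, the last with differences of 1.06 and 0.87. Amd1, an enzyme of polyamine synthesis (r = 0.983), Atg4b and Cnot10 were closest to Klhl14. Stam2, an endosomal sorting protein (r = 0.979), was closest to Sfmbt2, and Tmc3 came next (r = 0.977), the only member among another's nearest genes, followed by Morc4. Suv39h1, a histone H3 lysine methyltransferase (r = 0.976), Atg9b and Rnpep were closest to Fibin. Lrrtm4 had no gene as close, with Rbm22 first (r = 0.887) and Exosc9 and Zfand6 after it.

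Choroid plexus markers varied between libraries, with higher medians in R6/2 (median log2 1.31 with the shRNA and 1.90 with the control virus). The 10 markers summed to 1080 to 1940 CPM in R6/2-T and 126 to 1930 CPM in R6/2-C, against 175 to 1180 CPM in WT-T and 149 to 355 CPM in WT-C. None of the 10 was called by edgeR, by DESeq2 or by limma on FPKM in either genotype comparison, and none had an unadjusted p under 0.05 there, against 36.0% of all genes with the shRNA and 25.3% with the control virus. The meningeal and perivascular fibroblast markers summed to 146 to 182 CPM in R6/2-T and 56.0 to 274 CPM in R6/2-C, against 68.8 to 115 CPM in WT-T and 72.1 to 88.5 CPM in WT-C. The median gene was lower in R6/2. EdgeR called 0 of 12 higher and 2 lower in R6/2-T against WT-T (median log2 −0.44), beside 11.5% and 11.1% of all genes. The 2 were the collagen gene Col1a1 and Foxd1. In R6/2-C against WT-C it called 0 higher and 1 lower (median −0.32), the collagen gene Col3a1, beside 4.87% and 4.22% of all genes. The part of these cells in the levels of the 6 genes was not tested.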

How the data were processed

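Striatal total RNA was sequenced in 12 libraries of 4 groups, as labelled. The submitters' processing notes name GRCm38, HISAT2 and bcl2fastq 2.20. Per the file headers, the deposited values are estimated counts from StringTie (whole numbers, 131783370 to 229332386 per library), a signal headed Cuffdiff, and FPKM from an unnamed tool. The deposited Cuffdiff signal moves in steps worth 1 fragment each, and 97.2% to 97.6% of low values were whole multiples of the step to within 0.05. These recovered fragments were an alternative. FPKM deviations between libraries followed StringTie counts (r = 0.964 over log values) more closely than fragments (0.886). The count table holds 12 further columns of values, which were not used, and the deposited table of neuron-enriched genes was not used.

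The estimated counts were tested where plain gene counts had been assumed, by edgeR 4.0.16 in R 4.3.3 (quasi-likelihood F test, TMM, robust, filterByExpr by group, 1 model of 4 group means, two-sided, Benjamini-Hochberg over all 23453 genes tested, called under 0.05). Log2 differences and CPM are from this fit. The script was tested on simulated data. DESeq2 1.42.0, limma 3.58.1 on log2(FPKM + 0.1) and on log2(FPKM + 1), other filters and scaling, a replicate block and leaving out each library were alternatives. The smallest chi-square per degree of freedom between replicates was 10.8, so all 12 libraries were kept as separate samples.

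The members, the gene lists and the rule for naming genes were chosen with earlier results of these data known. The rule takes the 6 members, the genes that overlap them and the nearest tested gene on either side, the 3 most similar named genes, up to 4 called genes of each list and comparison by smallest p, the 10 highest-ranked genes and Tsnax. Coordinates are those of the deposited tables.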

Additional observations from a re-analysis of the deposited data

How the results depend on the processing

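In R6/2-T against WT-T, 4 to 6 of the 6 genes were called higher under the other settings, and in R6/2-C against WT-C 4 to 6, with all log2 differences above 0. Klhl14 and Lrrtm4 were not called with the control virus when only R6/2-C and WT-C were fitted, nor Fibin without replicate 1 of WT-C. With the shRNA, Fibin was not called when only R6/2-T and WT-T were fitted, without any 1 of the R6/2-T replicates or without replicate 1 of WT-T, while Lrrtm4 was called in recovered fragments and in log2(FPKM + 0.1). With the shRNA in R6/2, DESeq2 called 2 of 6 genes (Wt1 and Lrrtm4) and every other setting 0, and for the average over genotypes DESeq2 called 1, Wt1, with 0 to 1 when 1 library was left out. Signs turned in uncalled changes. Leaving out 1 library moved Klhl14 in R6/2-T against R6/2-C between −0.36 and 0.01, Lrrtm4 in WT-T against WT-C between −0.04 and 0.18, Tmc3 there between −0.05 and 0.27, and the Wt1 interaction between −0.08 and 0.81. Lrrtm4 in WT-T against WT-C was −0.08 in log2(FPKM + 0.1), −0.06 in log2(FPKM + 1) and −0.13 in fragments, and its interaction 0.09 in fragments, where Tmc3 in WT-T against WT-C was −0.08. The Wt1 interaction was −0.42 in log2(FPKM + 1), and the average shRNA change of Sfmbt2 −0.0033 in log2(FPKM + 0.1). The cause was not tested.

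Counts over all genes moved more, and DESeq2 gave the highest count among the other settings in each comparison. With 2131 genes called in R6/2-C against WT-C, other settings gave 454 to 3436 and leaving out 1 library 803 to 2733. For the 5304 of R6/2-T against WT-T these ranges were 4447 to 6648 and 2760 to 5473, for the 16 of R6/2-T against R6/2-C 4 to 1664 and 2 to 1197, for the 1 of WT-T against WT-C 1 to 100 and 1 to 11, for the 1 of the interaction 0 to 171 and 0 to 29, and for the 51 of the average 3 to 749 and 2 to 527.

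With the replicate number as a block, 5 members were called higher in R6/2-T and 6 in R6/2-C, and 0 in each shRNA comparison, the interaction and the average, while genes called in R6/2-C against WT-C fell to 1199 and in R6/2-T against R6/2-C to 4. The labels do not say whether equal numbers mark paired libraries, and the correlations between libraries did not settle it. Same-numbered libraries had correlations of −0.451 to 0.361, over 0.1 in 8 of 18 pairs, and 5 of 12 libraries were closest to one of their own number.

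Precision is limited by 3 libraries per group and by 7 to 46 fragments of Wt1 per WT library. The interaction and the average had no fit restricted to its own groups, since they use all 4.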
